A study of Mus musculus with 3 samples.

Results

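Megakaryocyte and platelet genes are described here by the ETO2 peaks found around them in mesoderm. The group holds 9 of the 22380 protein-coding genes of the mouse annotation: Itga2b, Itgb3, Pf4, Gp1ba, Gp1bb, Gp5, Gp6, Gp9 and Vwf. A peak was assigned to a gene when its summit fell inside that gene or at most 100 kb from either end, or when the nearest protein-coding start site was that of the gene. By this rule 8 peaks were assigned, of which 6 came from the 2335 peaks of replicate 1 and 2 from the 1873 peaks of replicate 2, and they formed 7 regions.

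The study asked where ETO2 (encoded by Cbfa2t3), a co-repressor that partners the blood regulator SCL, sits on chromatin in mesoderm about to form blood. Wild-type mouse embryonic stem (ES) cells (line J1 in the study's methods, strain C57Bl/6 X Sv129 in the labels) were differentiated to embryoid bodies, and FLK1+ cells were taken at day 4 according to the labels and the study's methods, whereas the series' design text names an earlier day. FLK1 is a receptor carried by mesoderm with blood and vessel potential. The single group comprised 2 ETO2 ChIP-seq libraries, described by the series as separate ES cell differentiations and precipitated with a Santa Cruz antibody against ETO2, and 1 input without antibody. Both peak lists are named with the same ChIP number, so that they are separate libraries rests on the labels. The fragment numbers recovered from the lists were equal at 1 of the 10 pairs of peaks with the same summit base. The cells were a mixed population defined by 1 surface marker, and no expression was measured in these libraries. RNA sequencing of FLK1+ cells in the study was not used here, so the peaks show where ETO2 was found and not whether a gene was active.

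Megakaryocytes are the bone marrow cells that shed platelets. Platelets stick to damaged vessels when the receptor complex made from Gp1ba, Gp1bb, Gp9 and Gp5 catches von Willebrand factor (Vwf), respond to collagen through Gp6, and clump when the integrin formed by Itga2b and Itgb3 binds fibrinogen, while Pf4 is a chemokine released from their granules. Itga2b encodes CD41, which also marks the first blood progenitors of the embryo, and Vwf is also made by endothelium. Many of these genes are known to be driven by GATA and ETS factors as megakaryocytes mature.

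Of the 9 genes, 4 had a peak of either replicate in the gene or within 100 kb, namely Itga2b, Gp1ba, Gp6 and Vwf, against 27% of all protein-coding genes. Replicate 1 peaks were assigned to 3 of them (Itga2b, Gp1ba and Vwf, 23.4% of all genes) and replicate 2 peaks to 2 (Itga2b and Gp6, 15.1% of all genes). Itga2b alone had a peak called in both replicates, and 1 of 9 is close to the 10.7% found over all genes. The group did not stand apart by this count. Peaks at start sites were less common in the genome: 3 of the 9 genes (Itga2b, Gp1ba and Vwf) had a summit within 1 kb of a start site, against 1.74% of all genes, and for 1 of them (Itga2b) such a peak was called in both replicates, against 0.313%. A gene with many annotated starts can meet this rule more easily, and Itga2b had 10 and Vwf 11, the other members 1 or 2. The coding start sites of these 3 genes also had a summit within 1 kb. The same 3 genes owned the start site nearest to a peak, as did 9.55% of all genes, and Vwf was the only one with a summit inside the gene (4.7% of all genes). With 9 genes each gene weighs 11.1%, the group was chosen with earlier results of these data known, and no test was made of these shares.

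**Figure D1:**
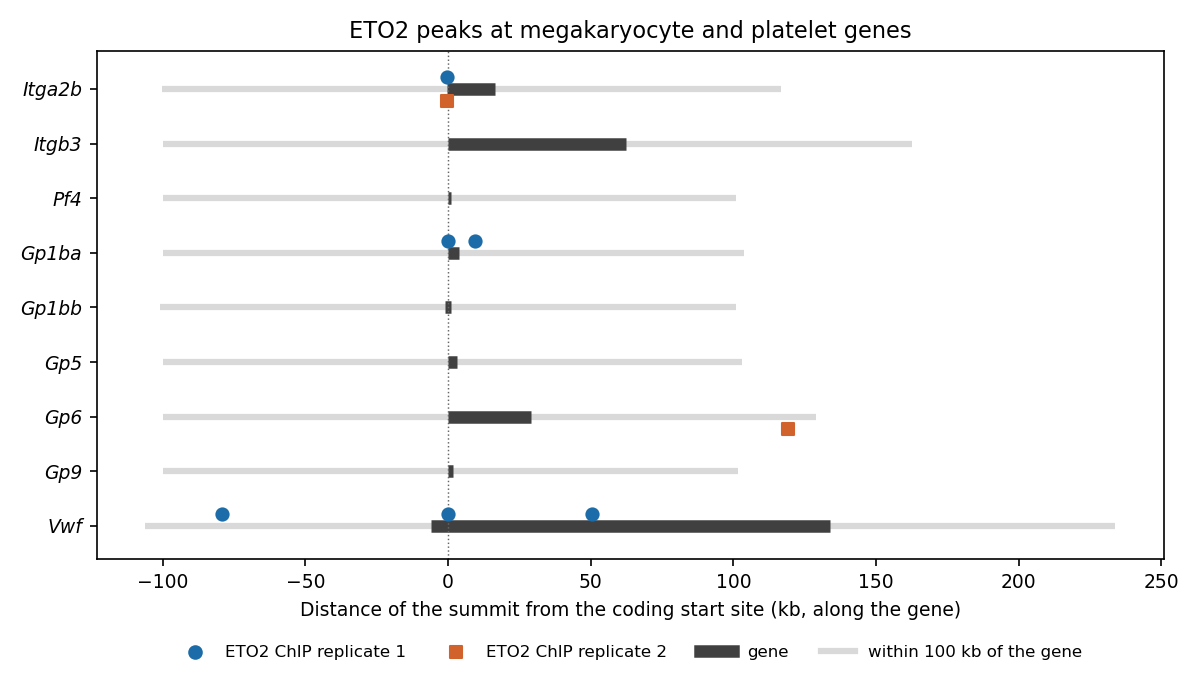
ETO2 summits around the 9 genes, with the distance in kb from the start site of the transcript with the longest coding sequence on the x axis and a row per gene. Blue circles are replicate 1 summits, orange squares replicate 2 summits, dark bars the genes and light bars the 100 kb searched to each side. Summits sit on the start sites of Itga2b, Gp1ba and Vwf, and Itgb3, Pf4, Gp1bb, Gp5 and Gp9 have none.

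The sequences printed here hold the motifs on which the description below turns, except the Vwf exon window, which holds none of those searched. Each is given on the strand of the gene from the mm9 genome (NCBIM37), and positions count back from −1, the base before the start site of the transcript with the longest coding sequence. Capitals mark GATA motifs (GATA with A or T before it and A or G after it, on either strand) and the ETS core AGGAA (or TTCCT). The first stretch joins the 100 bp summit windows of both replicates at Itga2b (chr11:102331400-102331587, minus strand, −390 to −203). The next are the summit windows in front of Gp1ba (chr11:70452516-70452615, plus strand, −130 to −31) and Vwf (chr6:125502857-125502956, plus strand, −109 to −10), and the summit window inside Vwf (chr6:125553487-125553586, plus strand). The last is the stretch in front of Gp5 (chr16:30310866-30310985, minus strand, −120 to −1), which had no peak in either list and is shown for contrast.
Itga2b: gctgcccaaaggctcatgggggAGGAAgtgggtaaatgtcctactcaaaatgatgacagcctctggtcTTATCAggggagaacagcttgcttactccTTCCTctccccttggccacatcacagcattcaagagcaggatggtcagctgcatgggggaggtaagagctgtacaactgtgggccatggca
Gp1ba: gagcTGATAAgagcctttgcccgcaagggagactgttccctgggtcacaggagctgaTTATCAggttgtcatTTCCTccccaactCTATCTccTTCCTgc
Vwf start site: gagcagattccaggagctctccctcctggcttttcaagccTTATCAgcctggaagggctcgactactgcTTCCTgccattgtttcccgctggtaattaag
Vwf exon: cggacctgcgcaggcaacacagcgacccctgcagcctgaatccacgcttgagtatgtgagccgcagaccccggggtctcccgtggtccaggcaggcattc
Gp5: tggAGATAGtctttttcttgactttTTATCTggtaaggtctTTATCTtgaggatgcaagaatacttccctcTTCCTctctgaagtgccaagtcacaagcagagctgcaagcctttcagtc

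Strength is given by the fold enrichment and q-value that the authors calculated with MACS2, and by the number of ChIP fragments at the summit, which was recovered from these values. Fragment numbers have exact 95% Poisson intervals that cover counting error only. Replicate 1 was called against the input and replicate 2 without one, so levels were not compared between the lists. Median fold enrichment was 5.24 over all replicate 1 peaks, of which 43% overlapped a replicate 2 peak, and 4.85 over all replicate 2 peaks, of which 54.2% overlapped a replicate 1 peak. Fragments per summit ranged from 12 to 206 (median 27) in replicate 1 and from 18 to 236 (median 35) in replicate 2. At the lowest background of each list, the weakest called peak had 12 fragments in replicate 1 and 18 in replicate 2.

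Itga2b, the alpha chain of the fibrinogen receptor, was the gene of the group with ETO2 called in both libraries. Its replicate 1 peak (chr11:102331339-102331618) had a summit 253 bp upstream of the start site of the main coding transcript, with a fold enrichment of 5.95, a q-value of 6.19e-19 and 35 fragments (24.4 to 48.7) over a local background of 5.26. Its replicate 2 peak (chr11:102331438-102331595) had a summit 341 bp upstream, with a fold enrichment of 3.36, a q-value of 1.03e-04 and 25 fragments (16.2 to 36.9) over a background of 6.74. The peak was thus above the middle of the replicate 1 list (percentile 61.7 by fold enrichment) and near the bottom of the replicate 2 list (percentile 7.05). Both summits lay in front of every annotated start of Itga2b, 14 and 102 bp from the first of its 10 start sites, which belongs to a non-coding transcript. The next gene with a start site nearby, Fam171a2, was 22.5 kb away.

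The Itga2b peak was an ordinary one for a promoter called in both lists in replicate 1 and a weak one in replicate 2. By fold enrichment it ranked 35 of 69 such promoter peaks in replicate 1 (median 5.95) and 68 of 70 in replicate 2 (median 5.49). The 2 summits were 88 bp apart, whereas overlapping pairs had a median distance of 26 bp, and 7.88% of pairs were farther apart. The GATA motif of the printed sequence (TTATCA, −322 to −317) lay 21.5 bp from the replicate 2 summit and 66.5 bp from the replicate 1 summit, outside the 100 bp window of replicate 1. A CTG followed by 8 to 10 bases and a GATA, a spacing at which SCL complexes are known to bind, included this motif on the opposite strand (−321 to −306). The palindrome CAGCTG, in lower case in the sequence at −248 to −243, was 7.5 bp from the replicate 1 summit. The matches nearest to each summit were therefore of different kinds, GATA with its CTG in replicate 2 and an E-box (CANNTG) in replicate 1.

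Gp1ba encodes the chain of the platelet receptor that holds the binding site for von Willebrand factor. Its peak (chr11:70452452-70452724) was called in replicate 1 only, with the summit 80 bp upstream of the coding start site and 58 bp from the nearest annotated start. Its fold enrichment was 4.9, its q-value 6.57e-15 and its fragment number 33 (22.7 to 46.3) over a background of 6.14. The fragment number was close to that of the Itga2b peak in the same library, and the intervals overlapped. The 100 bp window held 3 GATA motifs, the nearest 9.5 bp from the summit, and 2 AGGAA cores. Of the 279 replicate 1 peaks within 2 fragments of it, 152 (54.5%) were also called in replicate 2. In replicate 2 the nearest summit to the Gp1ba start site was 1144 kb away, farther than for 72.2% of genes.

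A second replicate 1 peak within reach of Gp1ba lay in a UTR of Rnf167 (chr11:70462013-70462213), 513 bp from a start site of that ubiquitin ligase gene and 5.76 kb beyond the end of Gp1ba. It was weaker, with a fold enrichment of 4, a q-value of 3.23e-06 and 18 fragments (10.7 to 28.4). Its window held 2 GATA motifs and a CAGGTG E-box. Peaks of this strength were seldom shared: 49 of the 465 replicate 1 peaks within 2 fragments of it (10.5%) were called in replicate 2.

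Vwf, the ligand that Gp1ba catches, had 3 replicate 1 peaks and none in replicate 2. The strongest by fold enrichment (chr6:125502761-125503013) had its summit 59 bp upstream of the start of the full-length coding transcript, in an intron of transcripts that start farther upstream. Its fold enrichment was 5.09, its q-value 2.98e-10 and its fragment number 22 (13.8 to 33.3) over a background of 3.73. The printed window held 1 GATA motif, 7.5 bp from the summit, and 1 AGGAA core at 21 bp. Of the 508 replicate 1 peaks within 2 fragments of it, 100 (19.7%) were called in replicate 2.

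Another Vwf peak (chr6:125553394-125553611) was in a coding exon, 50571 bp after the coding start site and 31 bp from the start of a processed transcript. It was among the weakest of its list, with a fold enrichment of 3.65, a q-value of 1.23e-03 and 13 fragments (6.92 to 22.2) over a background of 3.02, and its 100 bp window, printed as the exon sequence, held none of the motifs searched. Of the 90 peaks of like strength, 5 were shared (5.56%). The remaining peak (chr6:125423471-125423767) lay 73.2 kb before Vwf in an intron of Cd9, a tetraspanin also carried by platelets, and 4.71 kb from a Cd9 start site. It had a fold enrichment of 4.32, a q-value of 2.01e-09, 25 fragments (16.2 to 36.9) and a GATA motif near the edge of the window, 45.5 bp from the summit. In replicate 2 the nearest summit to the Vwf coding start site was 1854 kb away, and 83.8% of genes had a nearer one.

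Gp6, the collagen receptor, was reached by a replicate 2 peak alone (chr7:4230141-4230403). The summit was 90.1 kb beyond the end of the gene in an intron of Gm15931, and the nearest protein-coding start site was that of Lilra5, 40.9 kb away. It had a fold enrichment of 4.36, a q-value of 1.56e-07 and 26 fragments (17 to 38.1) over a background of 5.19. None (0%) of the 24-base words of its summit window occurred once in the genome, whereas 100% did in the other 7 assigned peaks. The part of repeated sequence in this peak was not tested.

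**Figure D2:**
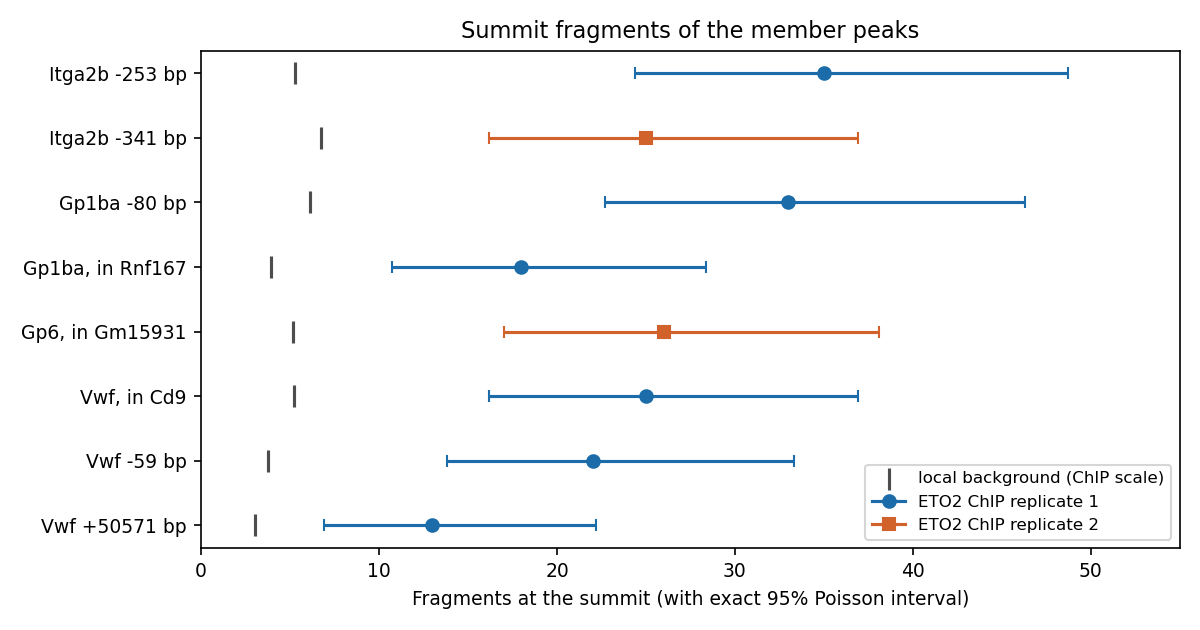
Number of ChIP fragments at the summit of the 8 assigned peaks (x axis), with exact 95% Poisson intervals and the local background on the scale of the ChIP library (grey ticks). Blue circles are replicate 1 and orange squares replicate 2. The peaks range from 13 fragments in the Vwf exon to 35 at Itga2b. Every interval lies above its background, which follows from calling peaks by their excess over it.

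**Figure D3:**
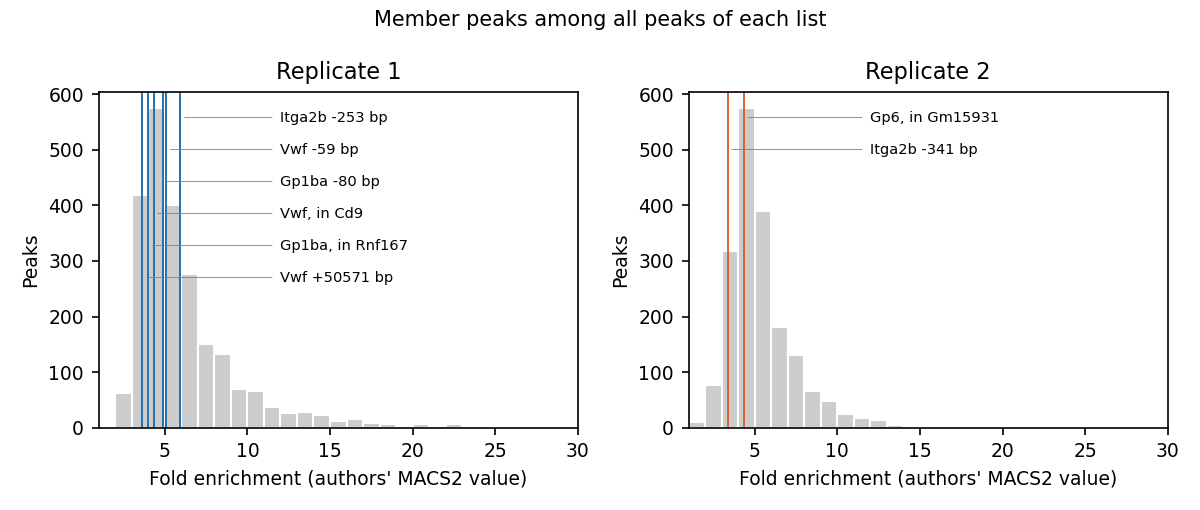
Histograms of the authors' fold enrichment (x axis) over all 2335 replicate 1 peaks and all 1873 replicate 2 peaks, with lines at the assigned peaks. The 6 replicate 1 peaks lie between 3.65 and 5.95 and the 2 replicate 2 peaks at 3.36 and 4.36, so none is in the upper tail, which begins beyond the upper quartiles of 7.1 and 6.17.

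The Gp1ba and Vwf start site peaks belonged to a class that differed between the libraries. Of the 335 replicate 1 peaks within 1 kb of a start site, 69 (20.6%) were called in replicate 2, against 43% of all replicate 1 peaks. Replicate 2 had 106 such peaks, of which 66% were called in replicate 1. By fold enrichment among the 335, the start site peaks of Itga2b, Vwf and Gp1ba ranked 59, 88 and 101. The Vwf exon peak, 31 bp from the start of a processed transcript, ranked 230. The Rnf167 peak, 513 bp from a start site, was also in this class. Of the 48 such promoter peaks within 2 fragments of the Gp1ba start site peak 14 were shared. Of the 82 within 2 fragments of the Vwf start site peak 5 were shared. Most promoter peaks of like fragment number thus also lacked a replicate 2 call, in a match that did not take motifs into account. Over replicate 1 peaks at any position within 2 fragments of the Gp1ba peak, 152 of 279 (54.5%) were shared. The parts of the missing input and of sequencing depth in the absence of a replicate 2 peak at the Gp1ba and Vwf start sites were not tested.

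Motifs at the Gp1ba and Vwf start sites were less common in that class. Among the 266 promoter peaks called in replicate 1 only, 23.3% (95% Wilson interval 18.6 to 28.7) had a GATA motif in the 100 bp window and 30.5% (25.2 to 36.2) an AGGAA core. The Gp1ba and Vwf start site windows held both. Of the other assigned peaks in this class, the Rnf167 window held GATA without AGGAA and the Vwf exon window held neither. Over all 8 assigned peaks, 6 (75%, 40.9 to 92.9) had a GATA motif, against 64.1% of all replicate 1 peaks and 52.3% of all replicate 2 peaks, so the group did not stand apart from the lists. The Itga2b region enters these 8 with a peak of each replicate, whose windows overlap, and the intervals treat them as separate. In flanks of the same length 500 bp to each side, GATA was found in 4 of 16 windows (25%) around the assigned peaks and in 16% and 18.2% around all peaks of replicates 1 and 2.

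AGGAA was found in 4 of the 8 windows (50%, 21.5 to 78.5; 43.5% of all replicate 1 and 42.1% of all replicate 2 peaks). The CTG and GATA pair, which can share its GATA with a GATA motif, was found in 1 (12.5%), at Itga2b in replicate 2, against 29.9% and 24.3% of all peaks. In 200 bp windows the pair was found in 4 of the 8 (50%), so this share depended on the window. These were the Gp6 and Cd9 peaks and both Itga2b peaks, which counted the same pair. The share of all peaks in 200 bp windows was not computed, so the 50% has no background beside it. The RUNX core TGNGGT was in 1 window (Gp6), CACCC in 1 (Cd9), CAGCTG in 1 (Itga2b, replicate 1) and CANNTG, which includes CAGCTG, in 2. A control string of like composition (ATAG with A or G before it and A or T after it) was in 1, at Gp1ba, where it overlaps a GATA motif. All motifs were searched on both strands, and a match describes the sequence and does not show a bound site.

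GATA motifs alone did not separate the start sites with a peak from those without one. In the 250 bases before and 50 after the coding start site, 5 of the 9 genes had a GATA motif (Pf4, Gp1ba, Gp5, Gp6 and Vwf), as did 26.9% of the 22380 promoters. Gp5, another chain of the von Willebrand factor receptor, had 3 GATA motifs between −117 and −74 and an AGGAA at −49 to −45, and Gp1ba had 3 GATA motifs between −126 and −40, yet only Gp1ba was called. AGGAA was found in the promoters of all 9 genes (64.8% of all promoters) and CACCC in 8 (58%). The CTG and GATA pair was found in 3, namely Pf4, Gp6 and Gp9 (5.63%), none of which had a peak at the start site. However, these bases did not reach the Itga2b summits, 253 and 341 bp upstream. Its GATA motif (−322 to −317) and its pair (−321 to −306) also lay outside, so Itga2b was counted as having neither. CAGCTG was in 4 (15.3%), CANNTG in 4 (69%), TGNGGT in 3 (44%) and the control string in 2 (23.9%).

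Itgb3, Pf4, Gp1bb, Gp5 and Gp9 had no peak by the rule. Itgb3, the partner chain of Itga2b, was 758 kb from the nearest replicate 1 summit and 315 kb from the nearest replicate 2 summit. Pf4 was the most remote in replicate 1, at 890 kb, and lay 1156 kb from the nearest replicate 2 summit. Gp1bb, which is linked to Gp1ba in the receptor, was 161 kb from a peak at Txnrd2 called in both replicates, with a fold enrichment of 5.66 in replicate 1 and 4.04 in replicate 2. Gp9 was 195 and 236 kb from the nearest summits of replicates 1 and 2, and Gp5 was 242 and 126 kb from them. The same distances for Gp6 were 233 and 119 kb. Over all genes the median distance was 355 kb in replicate 1 (quartiles 127 and 906) and 561 kb in replicate 2 (212 and 1256), so Gp1bb, Gp5, Gp6 and Gp9 were nearer than the median in both lists without a summit at the gene. In contrast, 0.72% of genes had a nearer replicate 1 summit than Itga2b, 0.241% than Gp1ba and 0.165% than Vwf, and 0.152% had a nearer replicate 2 summit than Itga2b.

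**Figure D4:**
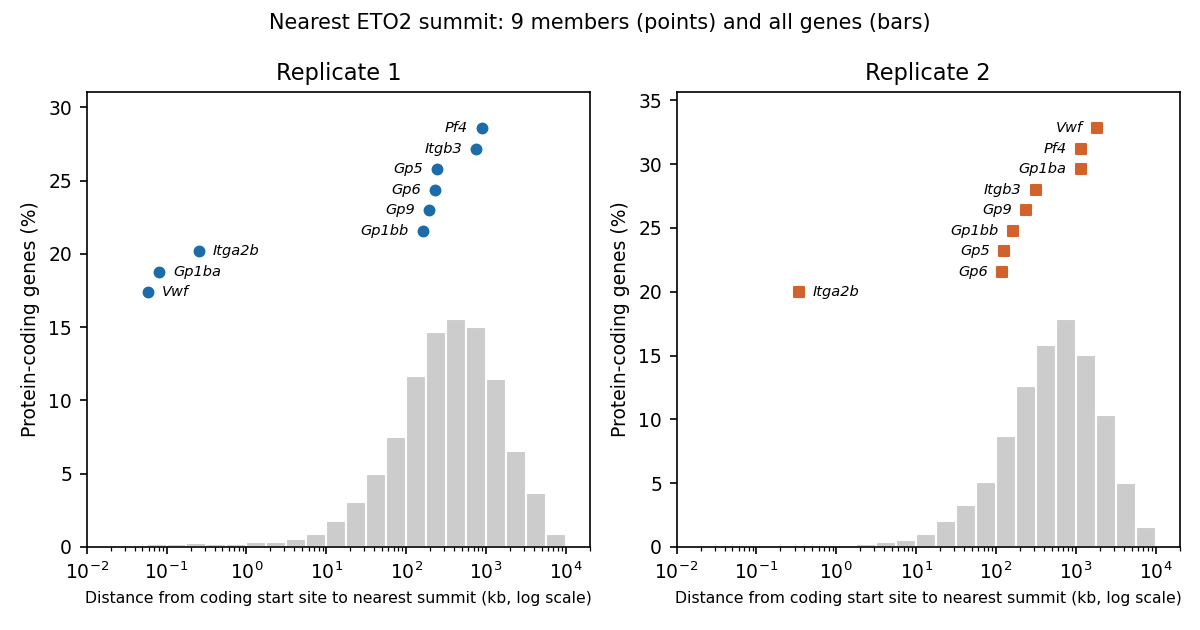
Distance from the coding start site to the nearest ETO2 summit on a log scale in kb (x axis), for all protein-coding genes (grey bars, percent of genes) and for the 9 genes (points, whose height carries no value). Itga2b, Gp1ba and Vwf lie below 1 kb in replicate 1, whereas Itga2b alone does in replicate 2, where Gp1ba and Vwf lie beyond 1000 kb.

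Among the other megakaryocyte and platelet genes listed here, those that encode transcription factors most often had a peak in the gene or within 100 kb. Of 60 further genes listed by role, 34 (56.7%) had a peak of either replicate in the gene or within 100 kb and 22 (36.7%) a peak called in both. For transcription factors of the lineage these counts were 9 and 9 of 10, with Mef2c as the exception. For receptors and adhesion proteins they were 12 and 7 of 23, for granule proteins 5 and 3 of 12, and for signalling, cytoskeleton and eicosanoid enzymes 8 and 3 of 15. A peak of either replicate within 1 kb of a start site was found for 2 of the 10 transcription factors and 2 of the 23 receptors and adhesion proteins. In the other 2 roles it was found for 0 of 12 and 0 of 15. Without the transcription factors, 25 of 50 genes (50%) had a peak and 13 (26%) a peak called in both, against the 27% and 10.7% of all genes given above. These shares are descriptions of chosen lists, and neighbouring genes can count the same peak.

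For each transcription factor gene the strongest shared peak is given, and Itga2b had a single one. Tal1, which encodes SCL, had a shared peak 24.1 kb from the gene with a fold enrichment of 26.8 in replicate 1 and 12.6 in replicate 2. At Zfpm1, the GATA1 partner FOG1 needed for megakaryocytes, 8 replicate 1 and 6 replicate 2 peaks were assigned, and the strongest shared peak, inside the gene, had fold enrichments of 22.7 and 8.31. Shared peaks inside the gene were also strongest at Runx1 (15 and 5.49 in replicates 1 and 2), Meis1 (7.84 and 4.49) and Gata1 (6.57 and 5.98), although the start site of Meis1 was not nearest to any peak. Those of Gfi1b (15.8 and 7.24), Fli1 (14.2 and 8.63) and Nfe2 (11.8 and 10.7) lay 11.2, 66 and 0.186 kb from the gene. The values of Itga2b (5.95 and 3.36) were below all of these in the same libraries, although its 35 replicate 1 fragments exceeded the 24 of the Gata1 peak.

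Among effector genes, shared peaks inside the gene were found at Tbxas1, the thromboxane synthase (9.92 and 5.43 in replicates 1 and 2), Plek, the protein kinase C substrate pleckstrin (6.04 and 4.2), and Plcg2, a phospholipase downstream of Gp6 (5.33 and 5.53). F2rl3, the thrombin receptor PAR4, had a shared peak 0.372 kb from the gene with fold enrichments of 3.97 and 5.4. The thrombin receptor genes F2r and F2rl2 counted the same shared peaks, the strongest of which (14.5 and 9.47) was 53.2 kb from F2r and 25.2 kb from F2rl2. The strongest peak of any receptor gene, at Pear1 (19.9 and 13.1), was 77.2 kb from the gene, and the start site of Pear1 was not nearest to any peak. The same held for P2rx1, an ATP receptor (8.07 and 7.3, 43.5 kb away), and Nbeal2, which is needed for alpha granules (7.53 and 6.29, 14.6 kb away). By contrast, Selp (P-selectin), P2ry12 (an ADP receptor), Ppbp (a granule chemokine) and Tubb1 (a platelet tubulin) had no peak in either list within 100 kb.

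**Figure D5:**
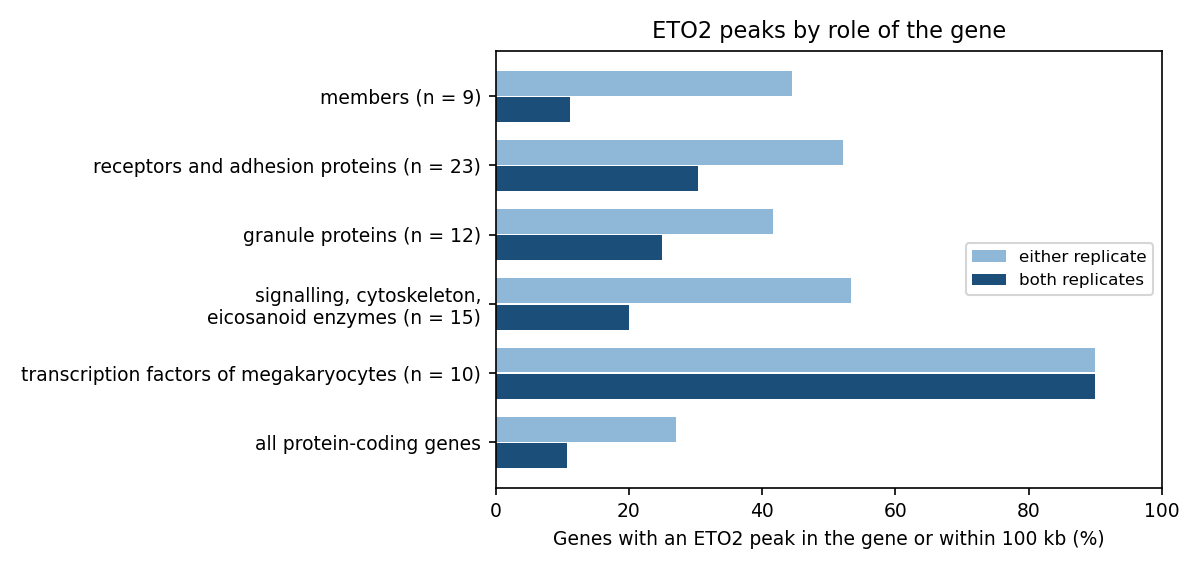
Percent of genes with an ETO2 peak in the gene or within 100 kb (x axis), by role of the gene, for a peak of either replicate (light bars) and a peak called in both (dark bars). The 9 genes of the group (members) reach 44.4% and 11.1%, the lineage's transcription factors 90% and 90%, and all protein-coding genes 27% and 10.7%.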

How the data were processed

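ETO2 ChIP-seq peak lists of FLK1+ cells were analysed. According to the study's methods, EGS and formaldehyde served as crosslinkers, sheared chromatin gave paired reads aligned to mm9 with Bowtie, duplicates were dropped, and the authors called peaks per library with MACS2 (2.0.10). The deposited lists give each peak a score (rescaled q-value), a fold enrichment (ratio of ChIP to local background at the summit) and −log10 p- and q-values, all made by the authors. A positions-only list of the whole series was not used here, and the input was not analysed here. The controls of the lists differed (input for replicate 1, none for replicate 2), which can change which peaks were called.

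Summit fragments were recovered from fold enrichment and p-value with a Poisson model, which matched 100% of peaks within 0.005 in −log10 p, and the step was tested on simulated data. The peak lists hold no depth. The study's reporting summary gives read totals, larger for replicate 1 than for replicate 2, which were not used here. Genes and start sites came from GENCODE annotation of NCBIM37, whose chromosome names and lengths match mm9. The coding start site is that of the transcript with the longest coding sequence, chosen after the annotation of Vwf and Itga2b was seen. An overlap of 1 bp or more made a peak shared. Motifs were searched on both strands of 100 bp summit windows. Python 3.11.15, scipy 1.17.1 and pysam 0.24.0 were used. All 9 genes and every assigned peak were named, as were genes of the wider list with a peak called in both replicates, strongest first. Windows were printed for peaks called in both replicates or inside a gene of the group. Gp1ba, Gp5 and the wider genes without peaks were added after their values were seen. The wider list held 61 genes, of which 60 matched the annotation (Syk was not analysed here). Some genes of the wider list are counted but not reported here by themselves. The members and lists were chosen with earlier results of these data known, and no tests across genes or peaks were made. Alternatives were distance, position, q-value, fold enrichment, overlap, repeated sequence, window length, start sites of all gene types and leaving out each replicate.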

Additional observations from a re-analysis of the deposited data

How the results depend on the processing

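Of 51 values recomputed under alternatives, 39 stayed close to those reported (counts within 1.5 times, shares within the Wilson interval). With a fold enrichment of at least 5, 2 genes had a peak (Itga2b and Vwf), in 2 regions, and 0 had a peak called in both replicates. With a q-value of at most 1e-05, 0 genes had a peak called in both replicates, since the replicate 2 peak at Itga2b was lost. Leaving out each replicate in turn gave 2 (without replicate 1: Itga2b and Gp6) to 3 genes (without replicate 2: Itga2b, Gp1ba and Vwf) with a peak, 1 to 3 genes whose start site was nearest to a peak, and 2 to 6 regions, so Gp1ba and Vwf rest on replicate 1 and Gp6 on replicate 2. The share of assigned peaks with a GATA motif was 66.7 to 100% without each replicate in turn, and that with the CTG and GATA pair 0 to 50%. The pair reached 50% in 200 bp windows (4 of 8 peaks, both Itga2b peaks counting the same pair) and 50% among peaks called in both (1 of 2). With distances of 50 or 20 kb, or without repeated sequence, Gp6 was lost and 3 genes had a peak. Of the wider list, 23 to 34 genes had a peak under these alternatives. No paired analysis was possible because there was 1 ChIP group, and no result came from a test. With 2 libraries a single peak has no spread between replicates, and a peak missing from a list was not detectable at that depth and threshold.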
